A study of Saccharomyces pastorianus with 12 samples.

Results

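The transcripts of the large-subunit cytosolic ribosomal proteins were compared between SpIB1 and SpIB2, a pair of lager strains of Saccharomyces pastorianus, during wort fermentation. Members were the entries named RPL or RPP followed by a number, an optional letter A or B and an optional copy number, and 2 entries named RPP1 were left out because that name belongs to a subunit of RNase P. The rule found 149 of the 11312 gene copies listed, for 42 proteins under 60 symbols. In RPL13B, RPL7A and RPL7B_3, 1 library each held text in place of digits, so 146 members were analysed, and each of these 146 passed the filter on low counts that 10659 of 11277 readable copies passed.

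Per the labels, the series was made to study maltose and maltotriose use. Both strains fermented standard brewing wort at 16 °C, and polyA RNA was sequenced on day 2 and on day 5. The 4 groups were SpIB1 day 2, SpIB1 day 5, SpIB2 day 2 and SpIB2 day 5, with 3 libraries each and 12 in all. The labels name no alleles or treatments beyond strain and day and leave unsaid whether each replicate was its own fermentation. The p-values therefore speak only to the variation among these libraries, which could be technical.

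The large subunit of the ribosome holds the site where peptide bonds form and the tunnel through which the new chain leaves. A flexible stalk on it, made of the acidic P proteins on the base protein P0, recruits the translation factors that hydrolyse GTP. In Saccharomyces cerevisiae, most of these proteins are encoded by duplicated genes named A and B, their transcripts are among the most abundant in growing cells, and they fall together when nutrients run short. Lager yeast is a hybrid of Saccharomyces cerevisiae and Saccharomyces eubayanus, so each gene can occur in copies from both parents.

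The copies were not evenly named. Of the 42 proteins, 30 had 4 entries, 9 had 2, 2 had 3 and RPL8 had 5. Entries under both letters were listed for 18 proteins, under A only for 12, under B only for 3 and under no letter for 9. RPL2, for example, had 4 entries under RPL2A and none under a B name, so in many proteins the letters do not separate the paralogs. The parent species of each copy is not given in the sources used here, and reads from near-identical copies may be shared between them, which makes the value of a single copy uncertain.

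Library totals over the copies readable in every library ran from 5133175 to 7922547 reads. Replicates of SpIB1 correlated at r = 0.968 to 0.988 across copies on the log2 scale. In SpIB2, day 2 replicate 3 (r = 0.896 and 0.906) and day 5 replicate 1 (r = 0.921 and 0.913) stood apart from their replicates, whose other pairs reached 0.951 and 0.969. Day 5 replicate 1 also had the lowest scaling factor, 0.509, by the trimmed mean of M values (TMM). Results are therefore given with and without these 2 libraries.

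The summed level of the 146 members differed between days in opposite directions in the 2 strains. In counts relative to library size after TMM scaling (CPM), the sum was 19573, 21453 and 19593 in the 3 SpIB1 libraries of day 2 and 37654, 29790 and 28041 on day 5. In SpIB2 it was 40864, 26310 and 43913 on day 2 and 7050, 17706 and 21438 on day 5. Every SpIB1 library was higher on day 5 than on day 2, and every SpIB2 library was lower.

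**Figure D1:**
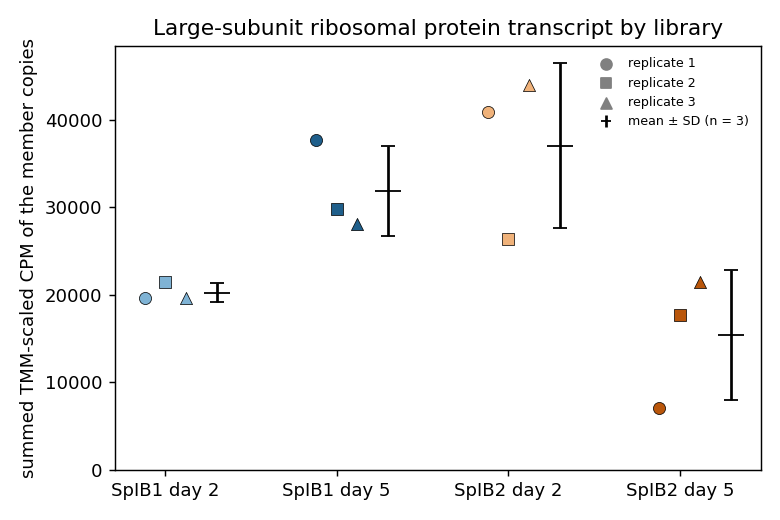
Summed TMM-scaled CPM of the 146 member copies in each library, by strain and day, with the mean ± SD of 3 libraries. SpIB1 sits between 19573 and 21453 on day 2 and between 28041 and 37654 on day 5, while SpIB2 lies between 26310 and 43913 on day 2 and between 7050 and 21438 on day 5, the lowest point being day 5 replicate 1.

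Without scaling between libraries, the members took 2.13% ± 0.12 of all reads in SpIB1 on day 2 and 4.05% ± 0.594 on day 5 (mean ± SD, n = 3). The shares in SpIB2 were 3.78% ± 0.927 and 1.26% ± 0.805. In the lowest library, SpIB2 day 5 replicate 1, the share was 0.359% (95% Wilson interval 0.354 to 0.364), against 1.54% and 1.9% in its replicates. The interval covers counting error only. These are shares of a bulk sample, in which fewer cells of one kind and less RNA per cell cannot be told apart.

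Individual libraries set much of the spread. SpIB2 day 2 replicate 2 was the lowest of its group for 143 of 146 members. SpIB2 day 5 replicate 1 was the lowest for 146 of 146, and SpIB1 day 5 replicate 1 was the highest for 138. The members thus moved together between libraries of the same group as well as between groups.

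In SpIB2, the fall from day 2 to day 5 reached most members. At an edgeR adjusted p under 0.05, 121 of 146 members were lower on day 5 and 0 were higher (background over all copies tested 23.5% lower and 21.8% higher, and 0 members were higher at an unadjusted p under 0.05 or by DESeq2). The median log2 fold change of the members was -1.28, against -0.10 over all 10659 copies. Libraries of the 2 days did not overlap for 113 members that were lower (background 25.2%). Without the 2 libraries that stood apart, 76 members were lower (background 19.5%) and the median was -0.79. With only the 6 SpIB2 libraries in the fit, 32 were lower (background 10.5%), and without SpIB2 day 2 replicate 1, 77 were lower (background 18.4%).

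The largest fall was in RPL9B, a gene for a protein that lies near the base of the stalk. RPL9B_1 had 612, 210 and 350 CPM on day 2 and 22, 115 and 87.4 on day 5. Its libraries did not overlap, and it fell by 2.38 ± 0.52 (SE) on the log2 scale (edgeR adjusted p = 0.00298). RPL9B_2, from 203, 128 and 202 to 11.3, 69.3 and 41.4 CPM, fell by 2.12 ± 0.48 (edgeR adjusted p = 0.00374). Both calls held in each of the other fits run without a minimum fold.

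At the other end, 25 members were not called lower in SpIB2. The smallest differences, chosen after their values were seen, were in RPL14B_1 (-0.16 ± 0.30), RPL36A_2 (-0.20 ± 0.31), RPL37B_2 (-0.28 ± 0.34) and RPL37B_1 (-0.34 ± 0.36). RPL14B_1 had 155, 135 and 204 CPM on day 2 and 109, 131 and 202 on day 5, so its days overlapped. RPL29_2, a copy of a protein that Saccharomyces cerevisiae can live without, was at -0.20 ± 0.36 (edgeR adjusted p = 0.681). Summed per protein, the level in SpIB2 was 4.1-fold lower on day 5 for RPL9 and 1.22-fold lower for RPL29, the ends of the range over 42 proteins.

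In SpIB1, the same members had higher values on day 5, but few passed the test over 12 libraries. The libraries of day 5 lay above those of day 2 without overlap for 132 of 146 members (background 18.6%) and below them for 0 (background 20.2%), and the median log2 fold change was 0.73, against 0 over all copies. By edgeR over all 12 libraries, 1 member was called higher (background 0.863%) and 0 lower (background 2.61%), with 51 higher and 0 lower at an unadjusted p under 0.05. With the 6 SpIB1 libraries alone, 102 of 145 tested members were higher (background 10.4%). DESeq2 called 22 (background 4.34%), and edgeR called 79 without the 2 SpIB2 libraries that stood apart (background 7.17%) and 37 without SpIB2 day 5 replicate 1 (background 3.42%). The count of calls in SpIB1 thus differed with the libraries in the fit and with the method, and the cause was not tested. With the SpIB2 libraries that stood apart left out, the median was 0.75.

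The 1 member called in SpIB1 was RPL7B_1. It had 42.7, 37.2 and 30.4 CPM on day 2 and 110, 79.8 and 75 on day 5, with no overlap, a rise of 1.26 ± 0.25 on the log2 scale (edgeR adjusted p = 0.0133). The call was lost without SpIB1 day 2 replicate 2 or 3, with an adjusted p of up to 0.075 over the alternatives. In SpIB2, RPL7B_1 went from 58.5, 51.8 and 55.8 to 24.4, 40.5 and 37.9 CPM.

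After TMM scaling, only 2 of 146 members had a day difference below 0 in SpIB1. Library totals in place of TMM moved the median of all copies by 0.27 in SpIB1, more than the size of either difference. One was RPL3_1, a copy of the gene for a protein that reaches toward the peptidyl transferase centre, with 1674, 1650 and 1093 CPM on day 2 and 1805, 977 and 1083 on day 5 (-0.19 ± 0.52). The other, chosen after its values were seen, was RPL15B_2 (-0.22 ± 0.25). Neither difference exceeded the spread between replicates (edgeR adjusted p = 0.905 and 0.708). In SpIB2 RPL3_1 fell, from 1173, 788 and 2562 to 160, 553 and 489 CPM (-1.91 ± 0.53, edgeR adjusted p = 0.0113), a call lost without the 2 libraries that stood apart, without SpIB2 day 2 replicate 3 and with the 6 SpIB2 libraries alone.

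The day effects were compared directly. For 129 of 146 members the change from day 2 to day 5 was lower in SpIB2 than in SpIB1 and for 0 it was higher by edgeR (background 11.9% and 14.6%, with 0 higher at an unadjusted p under 0.05 or by DESeq2). The median difference of the log2 day effects was -1.94, against -0.07 over all copies. Without the 2 libraries that stood apart, 126 members were called (background 12.4%) and the median was -1.49. A day change above 0 in SpIB1 and below 0 in SpIB2 was seen in 144 members and in 26.4% of all copies tested. The 144 include RPL35A_3, at 4 reads or fewer in each SpIB1 library, whose sign there carries no weight. Across members the sizes of the 2 day changes were barely related (Pearson r = 0.102, n = 146 copies, and 0.0847 over all copies), a description only, since copies share libraries, scaling and reads.

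**Figure D2:**
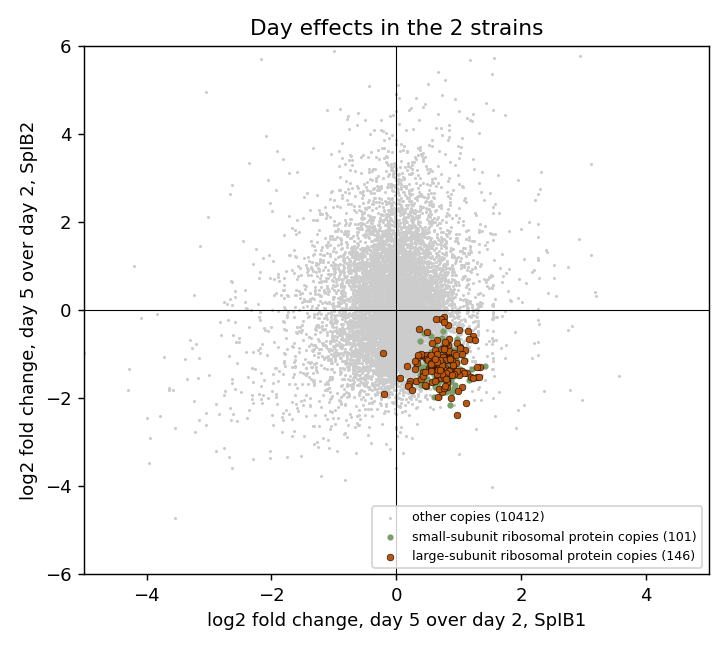
Log2 fold change from day 2 to day 5 in SpIB1 (horizontal) and in SpIB2 (vertical), 1 point per copy, with the 146 large-subunit members, the 101 small-subunit copies and the other copies tested. Members lie to the lower right, except for 2 left of 0, at medians of 0.73 and -1.28.

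The strain difference changed sign between the days. On day 2, 62 of 146 members were higher in SpIB2 and 0 lower by edgeR (background 19.3% and 16%, with 2 lower at an unadjusted p under 0.05 and 2 by DESeq2), at a median of 0.86 (0.04 over all copies). On day 5, 3 members were higher and 81 lower (background 29.9% and 26.5%), at a median of -1.04 (0.03 over all copies). Libraries did not overlap for 107 members higher and 2 lower on day 2 (background 26.8% and 25.8%), and for 3 higher and 100 lower on day 5 (background 31.2% and 30.8%). Without the 2 libraries that stood apart, 81 were higher and 4 lower on day 2 (background 26.5% and 23.3%) and 5 higher and 79 lower on day 5 (background 30.4% and 29%). The day 2 count was 31 when SpIB1 day 2 replicate 1 was left out (background 11.8%), 38 when replicate 3 of that group was (14.3%), and 38 with library totals in place of TMM (13.6%), while the direction of the median held.

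The same copies were not called on both days as a rule. Members called higher on day 2 and lower on day 5 numbered 15, those called higher on day 2 only 44, those called lower on day 5 only 66, and those called on neither day 18. The remaining 3 copies, RPL35A_3, RPL17B_3 and RPL29_2, were higher in SpIB2 on both days. Across the 146 members, the log2 strain differences of the 2 days had a Pearson r of 0.916 and a Spearman rho of 0.765. Over all copies, with none removed, the Pearson r was 0.792 and the Spearman rho 0.462. Without RPL35A_3 and RPL17B_3, a step chosen after the data were seen, they were 0.761 and 0.755 over 144 members. These are descriptions, since copies share scaling and reads. Summed over the copies of each symbol, 17 of 58 symbols were higher in SpIB2 on day 2 (background 14.9%), 38 were lower on day 5 (background 26.7%) and 0 higher (background 28.4%, and 0 at an unadjusted p under 0.05), and 50 fell with time in SpIB2 (background 24.5%). In SpIB1 edgeR called 0 symbols higher or lower with time (background 0.904% and 3.02%), with 22 higher and 0 lower at an unadjusted p under 0.05, and the day effects differed for 51 (background 12.4%).

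**Figure D3:**
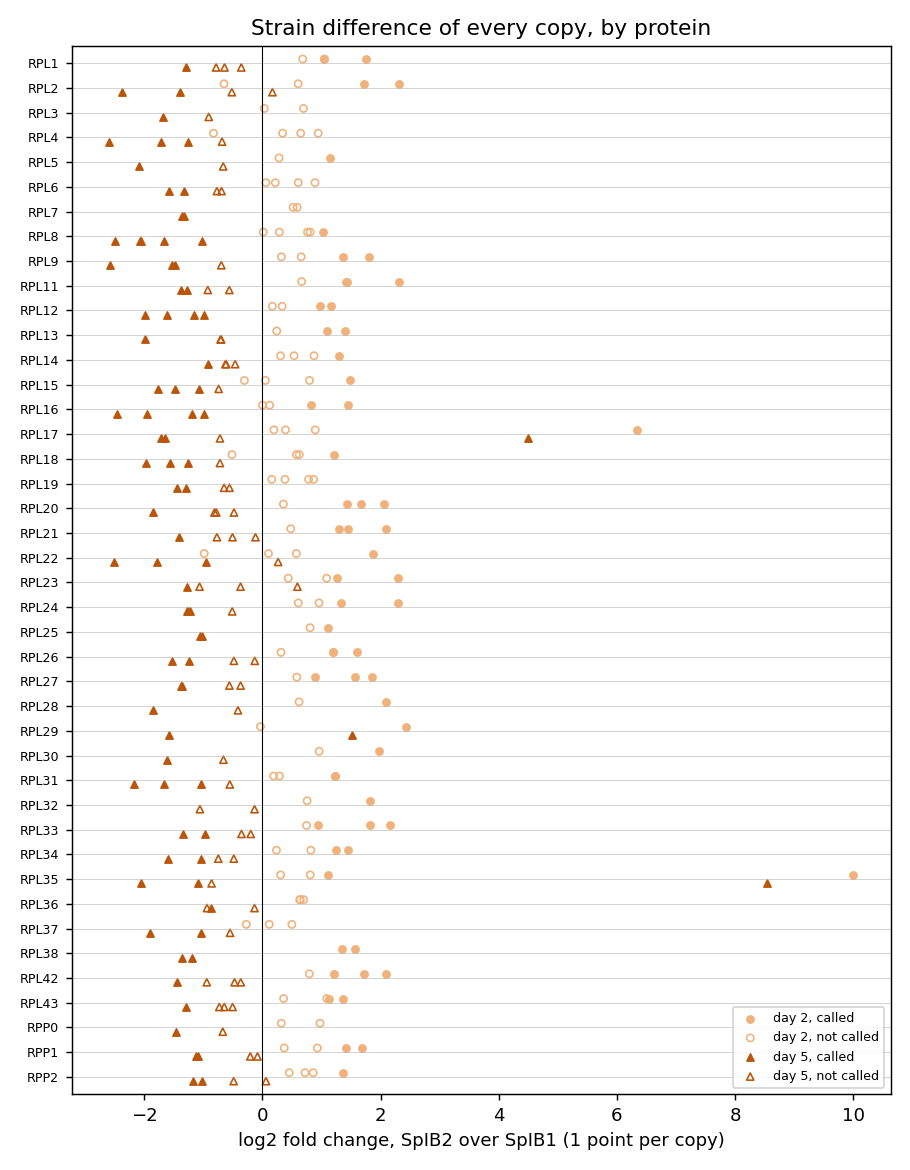
Log2 fold change of SpIB2 over SpIB1 for each copy, grouped by protein, on day 2 (circles) and day 5 (triangles), filled where the edgeR adjusted p was under 0.05. The points of RPL35A_3 are fitted values against a strain near 0 reads and give no bound. Most circles lie right of 0 and most triangles left of it, at medians of 0.86 and -1.04, and the copies of RPL35, RPL17 and RPL29 named in the text lie to the right on both days.

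By role, shares of copies can be read against those of all 146 members, of which 42.5% were higher in SpIB2 on day 2, 55.5% lower on day 5 and 82.9% lower with time in SpIB2, and against 19.3%, 26.5% and 23.5% of all copies tested. The day change was called lower in SpIB2 than in SpIB1 for 88.4% of members and 11.9% of all copies. No test compared the roles with each other.

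Among the stalk proteins (the P proteins and RPL12A, which binds next to the stalk base), 5 of 14 copies (35.7%) were higher in SpIB2 on day 2. On day 5, 9 (64.3%) were lower. From day 2 to day 5, 9 (64.3%) fell in SpIB2, and the day effects differed for 13 (92.9%). RPP0_1, a copy of the gene for the stalk base P0, had 331, 377 and 330 CPM on day 2 and 564, 415 and 552 on day 5 in SpIB1. In SpIB2 it had 402, 398 and 495 and then 98.5, 209 and 250 CPM. All SpIB2 values of day 5 lay below all others (SpIB2 day change -1.22 ± 0.35, edgeR adjusted p = 0.0131, lost with the 6 SpIB2 libraries alone).

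RPP1B_2, a copy for a P1 protein, had 41.7, 44.4 and 45.2 CPM in SpIB1 and 115, 104 and 131 in SpIB2 on day 2, with no overlap (log2 1.42 ± 0.25, edgeR adjusted p = 0.000902). On day 5 its strains overlapped, at 86.8, 64.4 and 74.3 against 53.2, 68 and 91.4 CPM. RPP1A_2, a copy for the other P1 protein, was also higher in SpIB2 on day 2 (1.68 ± 0.38, edgeR adjusted p = 0.00414), as was RPP2A_2 for a P2 protein (1.37 ± 0.35, edgeR adjusted p = 0.00842).

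RPP2B_2, a copy for the other P2 protein, was the only one of the 14 stalk copies whose day effects were not called different (-0.80 ± 0.60, edgeR adjusted p = 0.332). It had 88.1, 108 and 96.5 and then 132, 117 and 127 CPM in SpIB1, and 175, 145 and 212 and then 41.5, 132 and 219 CPM in SpIB2. In SpIB2 day 5 replicate 1 it was low, and in the other 2 libraries of that day it lay near the values of day 2. Neither RPP2B copy was called lower on day 5 in SpIB2 (edgeR adjusted p = 0.332 for RPP2B_1 and 0.416 for RPP2B_2).

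Of the 6 copies of RPL5 and RPL11, whose proteins bind 5S ribosomal RNA and enter the subunit with it, 4 (66.7%) were higher in SpIB2 on day 2, 3 (50%) lower on day 5, and all 6 fell in SpIB2. RPL11A_3 had 36.8, 51.2 and 40.1 CPM in SpIB1 and 307, 107 and 220 in SpIB2 on day 2 (2.31 ± 0.49, edgeR adjusted p = 0.00276). On day 5 it had 89.4, 80.9 and 64.1 against 16.1, 69.1 and 73.1 CPM. The strains did not overlap on day 2 and overlapped on day 5.

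Among the 16 copies for proteins of the core (RPL2, RPL3, RPL4, RPL28 and RPL42), 6 (37.5%) were higher in SpIB2 on day 2, 8 (50%) lower on day 5, and all 16 fell in SpIB2. RPL28_1, whose protein lies close to the peptidyl transferase centre, had 153, 174 and 163 CPM in SpIB1 and 889, 448 and 753 in SpIB2 on day 2. On day 5 it had 393, 349 and 300 in SpIB1 and 101, 336 and 345 in SpIB2. Its strain difference was 2.09 ± 0.44 on day 2 (edgeR adjusted p = 0.00254) and -0.41 ± 0.42 on day 5, where the libraries overlapped.

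The copies of RPL2A and RPL4A differed in their strain effects within a symbol, by the balance test over 2 or more copies given with the other balances. On day 2 the copies ran from -0.65 to 2.32 for RPL2A and from -0.83 to 0.95 for RPL4A, with none of the values below 0 called. On day 5 all 4 RPL4A copies were below 0, from -2.60 to -0.68. RPL2A_3 had 107, 111 and 113 CPM in SpIB1 and 593, 427 and 627 in SpIB2 on day 2 (2.32 ± 0.40, edgeR adjusted p = 0.000766). RPL2A_1 had 193, 199 and 186 against 127, 99 and 143 CPM on day 2, and 363, 259 and 281 against 35, 63.9 and 75.3 on day 5 (-2.37 ± 0.33, edgeR adjusted p = 4.85e-05). RPL4A_2, for a protein that lines the peptide tunnel, was likewise lower in SpIB2 on day 5, at 392, 273 and 328 against 36.7, 66.7 and 60.5 CPM (-2.60 ± 0.37, edgeR adjusted p = 7.18e-05). RPL2A_1 took 21.3% of RPL2 reads in SpIB1 and 6.6% in SpIB2 on day 2, and RPL2A_3 took 12.1% and 29.4%, each with an SD under 1 percentage point.

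Of the 22 copies for proteins around the exit of the peptide tunnel (RPL17, RPL19, RPL25, RPL26, RPL31 and RPL35), 9 (40.9%) were higher in SpIB2 on day 2, 13 (59.1%) were lower and 2 higher on day 5, and 20 (90.9%) fell in SpIB2. RPL26A had 97.4, 115 and 105 CPM in SpIB1 and 316, 153 and 256 in SpIB2 on day 2. On day 5 it had 245, 215 and 196 against 34.7, 104 and 138 CPM. The 2 strains traded places without overlap (day effects -2.44 ± 0.59 apart, edgeR adjusted p = 0.0116).

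For the L1 stalk, through which used transfer RNA leaves, 2 of 4 RPL1A copies were higher in SpIB2 on day 2, 1 (25%, near the 26.5% of all copies) was lower on day 5 and all 4 fell in SpIB2. Of the 4 RPL24 copies, for a protein that touches the small subunit, 2 (50%) were higher on day 2, 3 (75%) were lower on day 5 and all 4 fell in SpIB2. RPL24A had 50.3, 57.5 and 51.5 CPM in SpIB1 and 352, 153 and 274 in SpIB2 on day 2. The day 5 values were 141, 135 and 113 against 32.6, 104 and 136 CPM. The strains were apart on day 2 (2.29 ± 0.44, edgeR adjusted p = 0.00162) and overlapped on day 5 (-0.51 ± 0.43).

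RPL30 and RPL22 are known in Saccharomyces cerevisiae to inhibit splicing of their own or a paralog transcript. Of their 6 copies, 2 (33.3%) were higher in SpIB2 on day 2 and 4 (66.7%) were lower on day 5. In SpIB2 5 (83.3%) fell, and the day effects differed for 6 (100%). RPL30_1 had 81.3, 97.3 and 92.4 CPM in SpIB1 and 452, 212 and 402 in SpIB2 on day 2 (1.97 ± 0.43, edgeR adjusted p = 0.00326). Its day 5 values were 226, 255 and 202 against 60.8, 144 and 228 CPM, with overlap. Among the 74 copies with none of these roles in the lists used, 32 (43.2%) were higher on day 2, 40 (54.1%) were lower and 1 higher on day 5, and 57 (77%) fell in SpIB2, with RPL8B_3 the furthest below SpIB1 on day 5 after RPL9B_2 (-2.50 ± 0.32, edgeR adjusted p = 3.11e-05).

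RPL35A_3 was 1 of the 3 copies higher in SpIB2 on both days. It had 0, 4 and 0 reads in the SpIB1 libraries of day 2 and 1, 1 and 4 on day 5. In SpIB2 it had 1542, 894 and 1428 and then 107, 386 and 673 reads. SpIB1 was thus near 0 in every library. Summed over each group the ratio was 1130 on day 2 (95% counting interval 439 to 4130) and 435 on day 5 (199 to 1190). The copy passed the filter on low counts only through SpIB2, so its edgeR calls add no support to these counts. The copy held 23.9% ± 1.29 of RPL35 reads in SpIB2 on day 2 and 0.0417% ± 0.0722 in SpIB1 (mean ± SD, n = 3).

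RPL17B_3 followed the same pattern from a low but measurable level. It had 17, 22 and 21 and then 68, 31 and 41 reads in SpIB1, and 1187, 1212 and 1851 and then 193, 570 and 780 reads in SpIB2. The strains did not overlap, at log2 differences of 6.34 ± 0.47 on day 2 and 4.50 ± 0.43 on day 5 (edgeR adjusted p = 4.21e-07 and 2.08e-06). It made up 33.3% ± 2.01 of RPL17 reads in SpIB2 on day 2 and 0.745% ± 0.0692 in SpIB1. Summed over the copies of a symbol, RPL17B was 3.39-fold higher in SpIB2 on day 2 (edgeR adjusted p = 0.00226) and RPL35A 1.99-fold (edgeR adjusted p = 0.0835).

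RPL29_2 was higher in SpIB2 on both days while RPL29_1 was not. RPL29_2 had 59.5, 69.3 and 75.5 CPM in SpIB1 and 426, 290 and 390 in SpIB2 on day 2. On day 5 it had 122, 120 and 93.8 against 179, 265 and 521 CPM. It did not overlap between strains on either day (2.44 ± 0.38 and 1.52 ± 0.37, edgeR adjusted p = 0.000329 and 0.00323), and the day 5 call was lost with library totals in place of TMM. RPL29_1 was at -0.03 ± 0.45 on day 2 and lower in SpIB2 on day 5 (-1.57 ± 0.46, edgeR adjusted p = 0.0096).

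**Figure D4:**
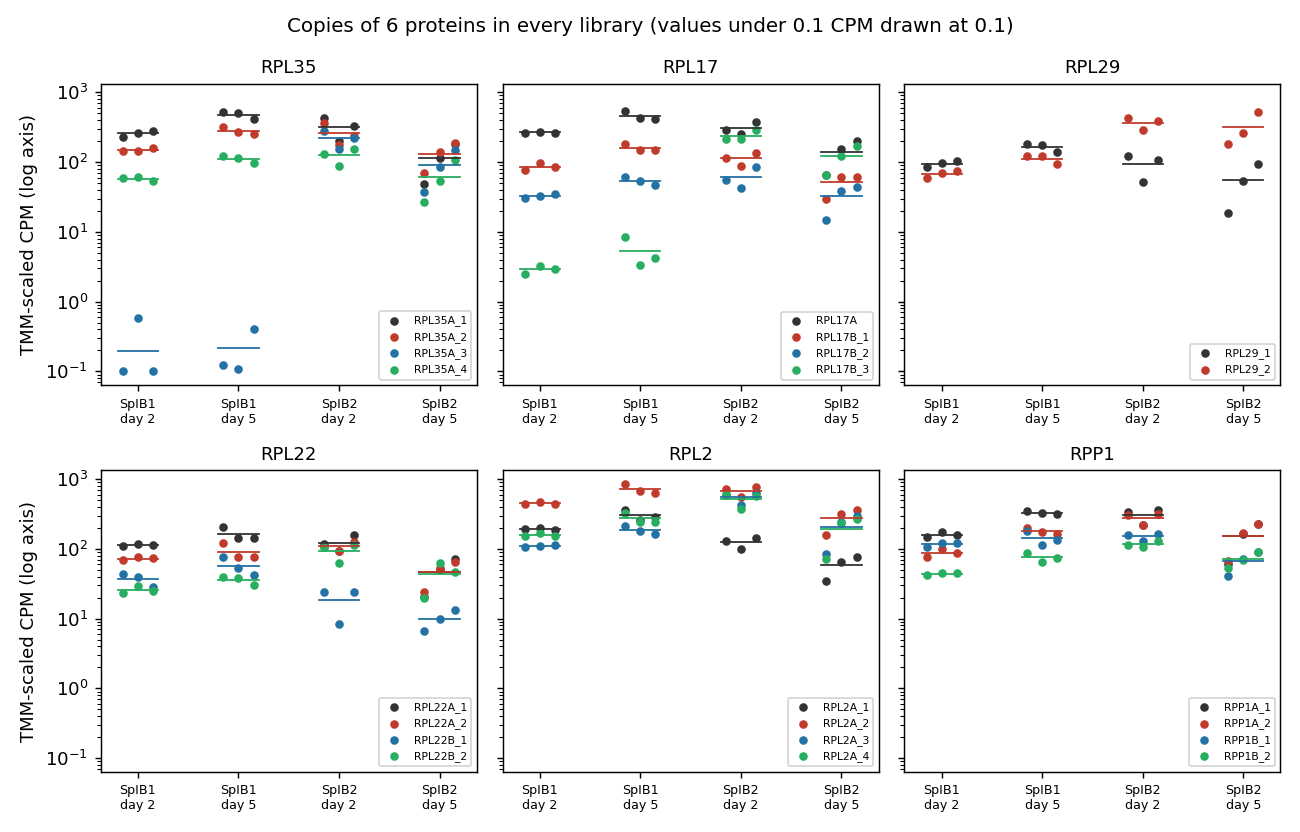
TMM-scaled CPM (log axis) of every copy of RPL35, RPL17, RPL29, RPL22, RPL2 and RPP1 in the 3 libraries of each group, with lines at the means and values under 0.1 drawn at 0.1. In SpIB1, RPL35A_3 is near the bottom and RPL17B_3 has means of 2.9 CPM on day 2 and 5.33 CPM on day 5. Both copies are at 36.7 CPM or more in every SpIB2 library.

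A change in the balance between the copies of a symbol does not depend on scaling between libraries. Among 22 symbols with exactly 2 tested copies, edgeR called the balance different between strains for 3 on day 2, RPL22B, RPL29 and RPP1B (background 30.9% of symbols). On day 5 it called 6, RPL16B, RPL22B, RPL28, RPL29, RPL5 and RPP1B (background 46.1%). RPL7B is among the 22 only because RPL7B_3 was left out for its unreadable cell, so its shares omit that copy. By edgeR, both shares lie below the background. By limma on the ratio of the copies, given below, both lie above it. Whether a shifted balance was more common here than among other symbols is therefore not settled. RPL22B copy 1 took 65.1%, 57.6% and 53.2% of the reads of both copies in SpIB1 on day 2, and 18.4%, 11.8% and 17.5% in SpIB2. RPL29 copy 1 took 58.9%, 58% and 57.8% against 22%, 15.3% and 21.3%.

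The difference in the copies' log2 strain effects was 2.85 for RPL22B on day 2 and 2.78 on day 5 (edgeR adjusted p = 0.000195 and 0.000229). For RPL29 it was 2.47 and 3.10 (edgeR adjusted p = 0.00269 and 0.000146). For the day changes and their difference, edgeR called 0 of 22 symbols (background 0.307% in SpIB1, 19.8% in SpIB2 and 6.34% for the difference, with 1, 0 and 0 at an unadjusted p under 0.05). Over the 47 symbols with 2 or more copies, a wider test chosen after the data were seen, 9 were called on day 2 (background 31.4%), 12 on day 5 (46.3%), 0 for the day change in SpIB1 (0.362%) and SpIB2 (19.9%), with 2 and 0 at an unadjusted p under 0.05, and RPL15B alone for the difference (6.68%). RPL17B, RPL2A and RPL4A, each with more than 2 copies, were among those called on both days. RPL35A was too, but its copies include RPL35A_3, which passed the filter on low counts only through SpIB2. The RPL35A call therefore adds no support to the counts of that copy.

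Limma on the log2 ratio of the copies within each library, which takes out what both copies of a library share, called more. Of the 22 symbols, it called 17 between strains on day 2 (background 57.2%) and 19 on day 5 (66%), both shares above the background. It called 1 for the day change in SpIB1 (3.04%), 5 in SpIB2 (40.9%) and 1 for the difference (22%). The 1 symbol in SpIB1 was RPP2B, whose copy 1 took 59.6% ± 0.387 of the reads on day 2 and 71.7% ± 1.09 on day 5 (limma adjusted p = 0.0148). In SpIB2 the share was 52.8% ± 1.99 and 53.2% ± 3.35, and the day changes differed (limma adjusted p = 0.0226). The 5 symbols in SpIB2 were RPL29, RPL36A, RPL7B, RPL9A and RPP1B.

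**Figure D5:**
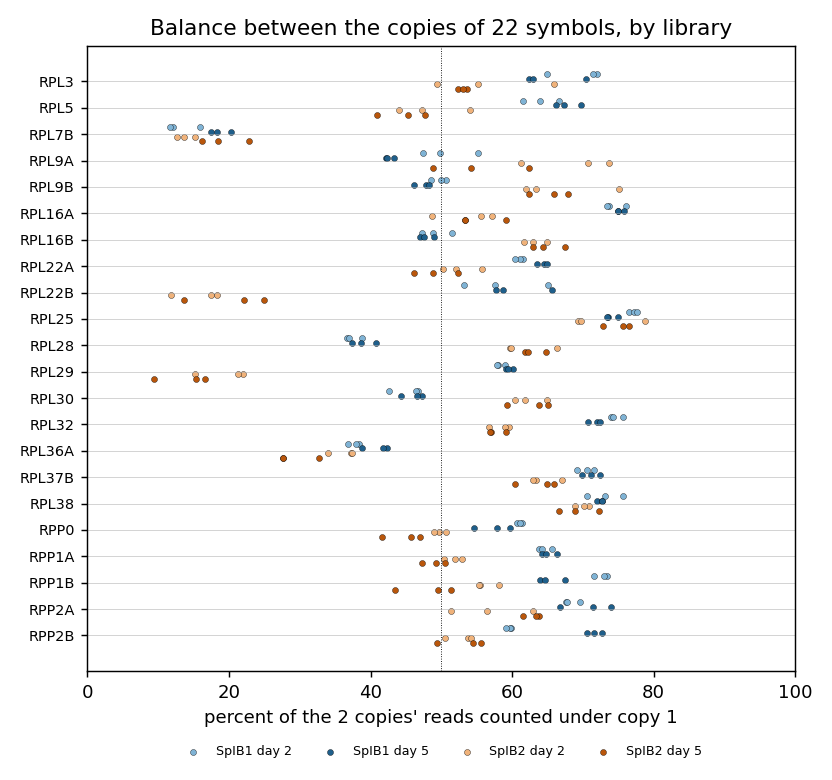
Percent of the reads of both copies counted under copy 1, in each library, for the 22 symbols with 2 tested copies (RPL7B without RPL7B_3). RPL22B and RPL29, near 60% in SpIB1 and between 9.38% and 25% in SpIB2, are among several symbols that separate by strain, RPL28 and RPL32 being others.

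The balance between A and B paralogs could be tested for 16 proteins, with the copies of each letter summed. EdgeR called 0 of 16 in each of the 5 comparisons (background 0%, 0%, 3.12%, 6.25% and 0% over 32 pairs, with 2, 2, 0, 1 and 1 of the 16 at an unadjusted p under 0.05). These 16 are among the 32 pairs, so the background of either test is not independent of the members. Limma on the within-library ratio called 7 between strains on day 2 (background 50%), 12 on day 5 (62.5%), 2 for the day change in SpIB1 (12.5%), 8 in SpIB2 (46.9%) and 3 for the difference (21.9%). The values below are of pairs that passed the limma test and were chosen after their values were seen.

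RPL17A took 70.6%, 67.1% and 68.3% of RPL17A and RPL17B reads in SpIB1 on day 2 and 42.8%, 42.3% and 42.7% in SpIB2. On day 5 it took 67.2% to 68.2% against 36.9% to 41.7%, so the strains did not overlap on either day (limma adjusted p = 3.5e-08 and 1.74e-08). RPL24A took 12.1%, 11.8% and 9.74% of RPL24 reads in SpIB1 on day 2 and 26.2%, 21.3% and 25.6% in SpIB2 (limma adjusted p = 1.47e-05). RPL21A took 57% to 59% in SpIB1 and 69.5% to 76.2% in SpIB2 on day 2 (limma adjusted p = 2.22e-05). The letters differ in their number of copies, with 1 A and 3 B for RPL17 and RPL24 and 3 A and 1 B for RPL21, so a larger share of a letter is not a higher copy. Without RPL17B_3, a step chosen after the data were seen, RPL17A took 69.2% ± 1.75 in SpIB1 and 63.9% ± 1.55 in SpIB2 on day 2, above 50% in both.

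For RPL9 the tests of the day change in SpIB2 differed. RPL9A took 13.5%, 11.7% and 20.3% of RPL9 reads on day 2 and 46.4%, 21.9% and 33.5% on day 5 (limma adjusted p = 0.00473, edgeR adjusted p = 0.11). In SpIB1 it took 18.7%, 21% and 18.7% and then 19.4%, 17.9% and 17.7%. The libraries of the 2 days did not overlap in SpIB2, with the highest share in day 5 replicate 1, and for the difference between strains the values were a limma adjusted p of 0.0281 and an edgeR adjusted p of 0.748. Limma's 8 of 16 for the day change in SpIB2 stands beside a background of 46.9%, which counts the same 16 pairs among its 32.

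Other parts of the translation apparatus, from lists of gene names, were counted in the same fit. Of 101 small-subunit ribosomal protein copies, 55 were higher in SpIB2 on day 2 and 48 lower on day 5, 79 fell in SpIB2 and the day effects differed for 90, at a median difference of -2.04. These are 54.5%, 47.5%, 78.2% and 89.1% of the list, against 19.3%, 26.5%, 23.5% and 11.9% of all copies. Of 62 copies for proteins of the mitochondrial large subunit, 24 were higher and 2 lower on day 2, 30 were higher and 5 lower on day 5, and 22 rose in SpIB2. The day change was higher in SpIB2 than in SpIB1 for 3 (4.84%) and lower for 1 (1.61%). Both shares lay below the 14.6% and 11.9% of all copies. Over all copies, 19.3% were higher and 16% lower on day 2, 29.9% and 26.5% on day 5, and 21.8% rose in SpIB2, against 38.7%, 3.23%, 48.4%, 8.06% and 35.5% of this list. The median strain difference on day 5 was 0.73 for the mitochondrial list.

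Of 114 copies for assembly factors of the large subunit, 30 were lower and 3 higher in SpIB2 on day 2, 86 were lower and 4 higher on day 5, and 18 fell and 7 rose with time in SpIB2. The 26.3% lower on day 2 and 75.4% lower on day 5 compare with 16% and 26.5% of all copies. The 2.63% and 3.51% higher on those days compare with 19.3% and 29.9%. The shares that fell (15.8%) and rose (6.14%) in SpIB2 lay below those of all copies (23.5% and 21.8%). The assembly factors had a median of -0.58 on day 2, where the ribosomal proteins had 0.86. Of 30 copies for regulators of ribosomal protein genes, 5 (16.7%) rose and 2 (6.67%) fell in SpIB2, both shares below those of all copies (21.8% and 23.5%). The largest rise in the list was in DOT6_2 (3.63 ± 0.67, edgeR adjusted p = 0.00106), a copy for a repressor of ribosome assembly genes in Saccharomyces cerevisiae. TOR2_2 was 1 of the 2 that fell (-1.11 ± 0.31, edgeR adjusted p = 0.0117). CRF1, which in Saccharomyces cerevisiae encodes a corepressor of ribosomal protein genes, was the 1 copy of this list that fell in SpIB1 (-1.30 ± 0.29, edgeR adjusted p = 0.0232). That is 3.33% of the list, near the 2.61% of all copies. Between strains, 3 (10%) were higher and 7 (23.3%) lower in SpIB2 on day 2, against 19.3% and 16% of all copies. On day 5, 8 (26.7%) were higher and 5 (16.7%) lower, against 29.9% and 26.5%. A link of these copies to the ribosomal protein values was not tested. Of 23 copies for elongation factors, 11 (47.8%) fell and 4 (17.4%) rose in SpIB2, against 23.5% and 21.8% of all copies.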

How the data were processed

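The authors deposited raw read counts per gene copy, each library in its own table. The submitters' processing notes name edgeR 3.34.0, HTSeq 0.11.1, Trimmomatic 0.38 and STAR 2.7.3a but give them no roles. No source used here gives the genome build, whether strand was used in counting, or how reads matching more than 1 copy were handled. Copies with an unreadable cell were left out, 35 in all, 3 of them members. The rest were filtered by edgeR's expression filter, scaled by TMM and fitted by edgeR 4.0.16 (R 4.3.3), quasi-likelihood with robust dispersion, over 12 libraries with 1 coefficient per group and 8 residual degrees of freedom. Benjamini-Hochberg adjustment ran over all 10659 copies, and a call means an adjusted p under 0.05. Standard errors came from the F statistic. Copy and paralog balance were tested with edgeR's differential-usage F test and with limma 3.58.1 on log2 CPM ratios (pseudocount 1), and DESeq2 1.42.0 was an alternative. The scripts were tested on simulated data. Members named in the text are all P proteins, per comparison up to 6 called each way with the largest change, a higher group mean of 10 CPM or more and no overlap (not asked of the difference of day effects), and the largest called change in each role. The rule as planned also listed copies at 0 reads and the 5 with the highest level, but no member was named on those grounds. For balances, up to 6 called pairs with the smallest adjusted p are named. Others are said to be chosen after. Members, lists and this rule were chosen with earlier results of these data known.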

Additional observations from a re-analysis of the deposited data

Results flagged for a closer look

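Members whose change from day 2 to day 5 differed between the strains by the edgeR test of the difference itself are listed here as SpIB2 minus SpIB1 log2 day effects, for those the naming rule picks out of the 129 called. The value was -3.35 for RPL9B_1 and -3.23 for RPL9B_2 (edgeR adjusted p = 0.00691 and 0.00603). RPL8B_4 and RPL8B_1 were at -2.86 and -2.84. The 5S RNA partner RPL11A was at -2.87 for RPL11A_3 and -2.81 for RPL11A_1. RPL24A, at the contact with the small subunit, was at -2.80, and RPL30_1, of the gene that controls its own splicing, at -2.63. RPL28_1 of the core was at -2.51, RPL26A of the tunnel exit at -2.44, RPL1A_1 of the L1 stalk at -2.39 and RPL12A_1 beside the stalk base at -2.15. These 12 differences were called in each of the other fits run without a minimum fold.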

How the results depend on the processing

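The members' medians kept their direction in every alternative that gave them. No member result named by the rule reversed where either fit called it. Sign changes of results called in neither fit were not counted. Counts below are of members unless said otherwise, and those given here or above without a share over all copies are not read against it. With library totals in place of TMM, 38 were higher in SpIB2 on day 2, and the members' median was -1.67 on day 5 and -2.53 for the difference of the day effects, where the median of all copies itself moved by -0.75 and -0.71 (0.27 and -0.44 for the day changes of SpIB1 and SpIB2). DESeq2 called 2 lower on day 2 and 22 higher with time in SpIB1. A test against a 2-fold change left 13 of 146 higher on day 2 (background 4.45%) and 23 lower on day 5 (8.75%). It left 5 lower with time in SpIB2 (2.55%, so near the background) and 14 for the difference (0.722%). Symbol sums, 58 in all, gave 17 higher on day 2, 0 higher and 38 lower on day 5, 50 lower with time in SpIB2 and 51 for the difference. With only the 6 libraries compared, 102 were higher with time in SpIB1 and 32 lower in SpIB2. Unreadable cells set to 790, an assumed value, gave 2 higher in SpIB1. Without the 2 SpIB2 libraries that stood apart, 4 were lower on day 2, 5 higher on day 5, 79 higher in SpIB1 and 76 lower in SpIB2. For copy balance that setting gave 12 symbols on each day and for paralog balance 3 on day 2 and 2 on day 5. Limma ratios gave 17, 19 and 5 symbols for copy balance (day 2, day 5, SpIB2 with time) and 7, 12, 2, 8 and 3 proteins for paralog balance (day 2, day 5, SpIB1, SpIB2, difference). Symbols with 2 or more copies, an alternative chosen after seeing the data, gave 9 and 12. Leaving out 1 library at a time gave 31 to 91 higher and 0 to 3 lower on day 2, 3 to 4 higher and 56 to 105 lower on day 5, 0 to 37 higher in SpIB1, 77 to 133 lower in SpIB2 and 78 to 139 for the difference. Copy balance ranged from 2 to 9 on day 2 and 2 to 11 on day 5, and paralog balance from 0 to 3, 0 to 2 and, for SpIB2 with time, 0 to 1. Same-numbered libraries correlated at -0.543 to 0.439, over 0.1 in 4 of 18 pairs, so the numbers showed no pairing common to all groups. Between the days of SpIB1 the values were 0.439, 0.0204 and 0.356, and between those of SpIB2 -0.383, -0.306 and -0.0239. Whether the days of SpIB1 were paired was not tested. With the replicate block, 51 were higher on day 2, 77 lower on day 5, 1 higher in SpIB1, 104 lower in SpIB2 and 97 for the difference, and copy balance on day 5 was called for 3. The cause of these changes was not tested. Depth limits RPL35A_3 in SpIB1, at 4 reads or fewer a library.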
